A study of Mus musculus with 16 samples.

Results

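The genes described here encode phosphofructokinase, the bifunctional enzymes that make and remove its activator, and the muscle enzyme that runs the step backwards. They were chosen by symbol and comprise the phosphofructokinase subunits Pfkm, Pfkl and Pfkp, the bifunctional enzymes Pfkfb1, Pfkfb2, Pfkfb3 and Pfkfb4, and the fructose bisphosphatase Fbp2, which are 8 of the 23970 gene symbols in the expression table. RNA was sequenced from the quadriceps of 16 male C57BL/6NTac mice aged 16 weeks, 4 in each of 4 groups. The CON-pre mice had eaten a control diet and the HFD-pre mice a high-fat diet, and both were sampled at rest, whereas the CON-post and HFD-post mice were other animals on the same diets that were sampled 3 h after a single treadmill run to exhaustion. Per the Methods, the resting mice had the same acclimatization to the treadmill and the same fasting period as the exercised mice, which had water but no food after the run. Whether that period counts the 3 h after the run is not spelled out, and if it does not, the run and a longer time without food cannot be told apart in the differences between post and pre. The study asked how the diet and the run, alone and together, change the RNA of muscle. All values are FPKM, in which the fragments of a gene are divided by the length of its transcript and by the size of the library, so levels of different genes can be set side by side.

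Phosphofructokinase adds a second phosphate to fructose phosphate and thereby commits sugar to glycolysis. Its strongest activator is another bisphosphate of fructose, which is made by the kinase part of the Pfkfb enzymes and removed by their phosphatase part, and the same molecule holds back fructose bisphosphatase. Skeletal muscle runs this step at very high rates during contraction, with Pfkm as its own form of the enzyme, and mutations of the human gene cause a glycogen storage disease with exercise intolerance.

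Of the 4 comparisons between single groups, none gave a call for a gene of this set, but averaged over both diets Pfkfb3 was down-regulated and Pfkfb4 up-regulated after the run, and averaged over both states Fbp2 was up-regulated on HFD. Of 29 alternative fits, the call was made in 26 for Pfkfb3 and 28 for Pfkfb4, but in only 10 for Fbp2, whose adjusted p of 0.0431 was close to the threshold. The fall of Pfkfb3 was the largest of these, a difference of -0.95 on the log2 scale. Calls were made with limma, a linear model fitted to log2(FPKM + 0.5) of all 11256 genes tested at once, and a gene was called when its p, adjusted over these genes by the method of Benjamini and Hochberg, was under 0.05. SE below is the standard error from this model, and differences are post minus pre or HFD minus CON on this log2 scale. Pfkm, by far the most abundant member, and Pfkl, Pfkp, Pfkfb1 and Pfkfb2 did not pass the test in any comparison.

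All 8 genes reached the mean of 0.5 FPKM that was needed to be tested, and the order of their levels spanned a wide range. Pfkm was at 991 ± 75.7 FPKM (SD over 16 libraries), which placed it at rank 24 of the 11256 genes tested. Pfkfb3 followed at 55.6 ± 33.6 FPKM, Fbp2 at 25.5 ± 5.85, Pfkfb1 at 21.3 ± 3.02 and Pfkfb4 at 15.4 ± 2.43 FPKM. Pfkfb2 was at 3.25 ± 0.431, Pfkl at 1.81 ± 0.328 and Pfkp at 1.63 ± 0.374 FPKM. Pfkm exceeded Pfkfb3 in 16 of 16 libraries, and Pfkfb4 exceeded Pfkfb2, and Pfkfb2 exceeded Pfkl, in 16 of 16 as well. In contrast, Pfkfb3 was above Fbp2 in 12 of 16, namely in every library outside HFD-post and in no HFD-post library. Other neighbours in the middle and at the bottom of the order changed places between libraries. Fbp2 was above Pfkfb1 in 11 of 16, Pfkfb1 above Pfkfb4 in 14 and Pfkl above Pfkp in 9.

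The muscle form made up nearly all phosphofructokinase RNA. Its share of the summed FPKM of Pfkm, Pfkl and Pfkp lay between 99.5 and 99.8% in every library. Among the Pfkfb genes no single form was so dominant, and their shares differed widely between libraries. The summed FPKM of the 8 muscle identity markers lay between 56963 and 60737 in CON-pre, 50155 and 54813 in HFD-pre, 51180.1 and 58288 in CON-post and 46979.5 and 53972 in HFD-post, led by Acta1, Tnnt3 and Ckm, which encode skeletal actin, fast troponin T and muscle creatine kinase. The resting groups did not overlap in this sum and the exercised groups did, and over both states 7 of the 8 markers were lower on HFD, with a median log2 difference of -0.13 against -0.02 for all genes. None of them was called for diet, 6 had an unadjusted p under 0.05, and their part in the diet differences of the members was not tested. Since these are whole pieces of muscle, fewer cells of a type and less RNA per cell cannot be told apart.

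The promoter sequences of the 3 genes that passed a test are shown because Pfkfb3 and Pfkfb4 are known targets of the hypoxia-inducible factors, whose binding sites hold the letters ACGTG or GCGTG. Each line gives the 250 bases before a transcription start in RefSeq (GRCm38.p6), 5′ to 3′ on the strand of the gene, with ACGTG or GCGTG on either strand in capitals (the E-box CACGTG holds ACGTG on both strands). Pfkfb3 has an outer start and an inner start within the gene, and the window of the outer start, which overlaps the annotated extent of the gene, is described only. The Pfkfb4 start shown also lies within the annotated extent of its gene (chromosome 9, 108988272 to 109032236), as does its window.
Pfkfb3 inner start (chr2:11502091-11502340, minus strand): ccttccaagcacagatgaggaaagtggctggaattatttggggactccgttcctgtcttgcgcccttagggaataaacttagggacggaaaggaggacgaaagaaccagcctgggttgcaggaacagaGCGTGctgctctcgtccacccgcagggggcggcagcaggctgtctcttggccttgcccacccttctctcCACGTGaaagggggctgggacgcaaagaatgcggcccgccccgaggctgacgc
Pfkfb4 (chr9:108991652-108991901, plus strand): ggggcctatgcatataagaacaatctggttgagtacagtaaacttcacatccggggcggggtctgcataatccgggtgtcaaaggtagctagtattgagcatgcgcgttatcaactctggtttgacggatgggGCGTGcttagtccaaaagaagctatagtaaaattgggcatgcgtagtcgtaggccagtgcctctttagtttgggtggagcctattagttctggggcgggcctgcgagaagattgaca
Fbp2 (chr13:62858401-62858650, minus strand): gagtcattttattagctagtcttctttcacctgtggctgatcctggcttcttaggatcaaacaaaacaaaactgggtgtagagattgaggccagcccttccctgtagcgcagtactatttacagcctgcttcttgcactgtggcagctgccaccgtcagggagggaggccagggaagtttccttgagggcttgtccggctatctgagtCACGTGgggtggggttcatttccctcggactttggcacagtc

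The inner Pfkfb3 window holds an E-box and a GCGTG, the outer one a single ACGTG, the Pfkfb4 window a single GCGTG, and the Fbp2 window an E-box. Such letters are common: of 32851 windows of the same length before RefSeq starts, 16.6% hold ACGTG, 28.2% hold GCGTG and 6.02% hold CACGTG. The 17 windows of the 8 genes held ACGTG in 7 cases, GCGTG in 9 and CACGTG in 4. Some genes have several windows, of which some of Pfkm and of Pfkfb2 overlap, and each CACGTG also counts as ACGTG. These counts are therefore not of separate sites and were not tested against all windows. The NR4A motif AAAGGTCA, present in 1.34% of all windows, was found once, before a start of Pfkfb1, and the cyclic AMP response element TGACGTCA, present in 1.55%, was found before none of the 8 genes. All motifs were searched on both strands, and a match describes only the letters.

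**Figure D1:**
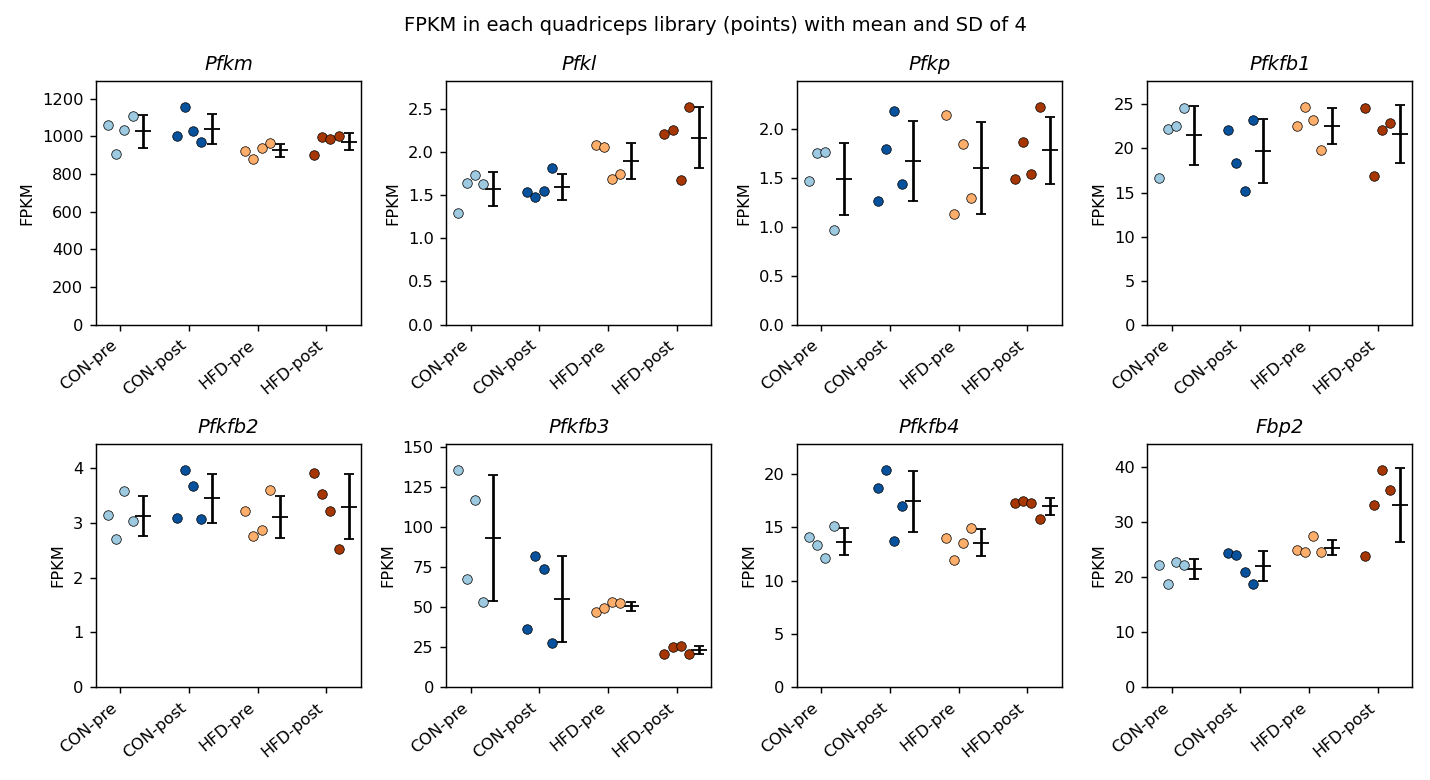
FPKM of the 8 genes in each library, by group, on linear axes that start at 0; each point is 1 mouse, and the bar beside each group is the mean with its SD (n = 4). Pfkfb3 is spread from 53.4 to 136 FPKM in CON-pre but lies between 21.0 and 25.8 FPKM in all 4 HFD-post libraries, while Pfkm, Pfkl, Pfkp, Pfkfb1 and Pfkfb2 overlap in every pair of groups compared.

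Pfkfb3 (chromosome 2, 11471430 to 11554071) encodes the bifunctional enzyme with the highest ratio of kinase to phosphatase activity, and it is known as an inducible gene that low oxygen and growth signals turn up. Its FPKM was 136, 67.5, 117 and 53.4 in the CON-pre libraries and 47.0, 49.7, 53.4 and 52.4 in HFD-pre. After the run it was 36.5, 82.1, 73.7 and 27.6 FPKM in CON-post, and 21.0, 25.4, 25.8 and 21.1 FPKM in the HFD-post libraries. The control mice thus varied widely among themselves, both at rest and after the run, whereas the mice on HFD lay close together. The coefficient of variation was 42.1% in CON-pre and 49.0% in CON-post, against 5.67% in HFD-pre and 11.1% in HFD-post, a difference in spread that was not tested. All 4 HFD-post libraries were below every other library of the series.

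Averaged over both diets, Pfkfb3 fell by 0.95 on the log2 scale after the run (SE 0.22, 95% interval -1.42 to -0.49, adjusted p = 0.0222). It was 1 of the 2 members called among 8 in this comparison, in which 3.86% of all genes tested were called. Within each diet the difference did not pass the test. In CON-post the mean was 55.0 ± 26.9 FPKM against 93.5 ± 39.4 in CON-pre (SD, n = 4 each), a log2 difference of -0.80 (SE 0.31, adjusted p = 0.307), and the groups overlapped. In HFD-post it was 23.3 ± 2.59 FPKM against 50.6 ± 2.87 in HFD-pre, a log2 difference of -1.11 (SE 0.31, adjusted p = 0.155), and the groups did not overlap. A fit of the HFD-pre and HFD-post libraries alone, which leaves the spread of the control mice out, gave the same difference with an adjusted p of 0.00116.

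The diet difference of Pfkfb3 was close in size to that of exercise but missed the threshold. Averaged over both states it was -0.93 on the log2 scale (SE 0.22, adjusted p = 0.0586). At rest, HFD-pre set against CON-pre gave a log2 difference of -0.78 (SE 0.31, adjusted p = 0.488), with the lowest CON-pre library at the level of the highest HFD-pre library. After the run, HFD-post set against CON-post gave -1.08 (SE 0.31, adjusted p = 0.324), and these groups did not overlap. The mean of HFD-post was 0.249 of that of CON-pre, a pair of groups that differ in both diet and exercise and were not tested. The interaction of diet and exercise was -0.31 (SE 0.44), with a 95% interval from -1.24 to 0.63 and an adjusted p of 1.00, and this wide interval holds 0 as well as -1.

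The call for exercise was lost without 1 of the libraries. Without CON-pre replicate 1, the mouse with 136 FPKM, the difference was -0.85 and the adjusted p 0.0527, and without any other single library the adjusted p was between 0.00759 and 0.0485. It was also missed narrowly with no filter on low values (adjusted p = 0.0528) and with the adipocyte score as a covariate (-0.93, adjusted p = 0.0546). For the diet difference the reverse was seen, as leaving out CON-pre replicate 4, CON-post replicate 1 or CON-post replicate 4, the control mice with low Pfkfb3, gave adjusted p of 0.0239, 0.0455 and 0.0133.

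The summed FPKM of the 9 slow-fibre markers was 235, 512, 643 and 774 in CON-pre and 791, 219, 629 and 651 in CON-post, in the order of the replicates, so that the library with the highest Pfkfb3 in each of these groups had the lowest slow-fibre sum. In HFD-pre the library with the highest Pfkfb3, replicate 3, had the highest slow-fibre sum. The sum was between 229 and 569.7 in HFD-pre and between 222 and 846 in HFD-post. All 9 markers were lower in HFD than in CON averaged over both states, with a median log2 difference of -0.41 against -0.02 for all genes, but none was called. With the slow-fibre score as a covariate, the exercise difference of Pfkfb3 was -0.90 (adjusted p = 0.0204) and the diet difference -1.06 (adjusted p = 0.0160).

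Pfkfb4 (chromosome 9, 108988272 to 109032236), first known from testis and also a target of the hypoxia-inducible factors, moved the other way. Its FPKM was 14.1, 13.3, 12.1 and 15.1 in CON-pre and 14.0, 11.9, 13.5 and 14.9 in HFD-pre. It was 18.7, 20.4, 13.7 and 17.0 FPKM in CON-post and 17.3, 17.5, 17.3 and 15.8 in HFD-post. Every HFD-post library was above every HFD-pre library, and in CON-post 1 library, replicate 3, lay within the range of CON-pre.

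Averaged over both diets, Pfkfb4 rose by 0.32 on the log2 scale (SE 0.08, 95% interval 0.16 to 0.48, adjusted p = 0.0234). The difference was 0.33 on CON (adjusted p = 0.192) and 0.32 on HFD (adjusted p = 0.255), and the interaction was -0.02 with a 95% interval from -0.34 to 0.30. For diet the difference was -0.02 averaged over both states, with a 95% interval from -0.18 to 0.14. Without HFD-pre replicate 2 the adjusted p for exercise was 0.0552, and without any other single library it was at most 0.0499. Without CON-post replicate 3 the change on CON alone was 0.44 with an adjusted p of 0.0340.

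Some markers of other cell types and fibres differed in the comparison that gave the calls of Pfkfb3 and Pfkfb4. After the run, over both diets, 1 of 8 endothelial markers rose, namely Pecam1 (log2 difference 0.36, adjusted p = 0.00141), which was also called within HFD (0.39, adjusted p = 0.0347), and the median of the 8 was 0.05 against 0.01 for all genes. Of the 8 muscle identity markers Des, the intermediate filament desmin, rose (0.23, adjusted p = 0.0322), 3 had an unadjusted p under 0.05 and the median was -0.02. Of 11 fast-fibre markers Myl1, a fast myosin light chain, fell by 0.31 on the log2 scale (adjusted p = 0.00948), as it did by 0.39 on CON alone (adjusted p = 0.0397), and the median over both diets was -0.05. The fast-fibre sums of CON-pre (74451 to 82942 FPKM) and CON-post (67431 to 73968 FPKM) did not overlap, whereas those of HFD-pre and HFD-post did. All 3 tested liver markers of 6 were lower after the run, with a median of -0.76 and none called, and the median of their summed FPKM was 9.69 in CON-pre and 7.57 in HFD-pre against 0.537 and 1.70 in the exercised groups. The part of these in the exercise differences of the members was not tested.

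**Figure D2:**
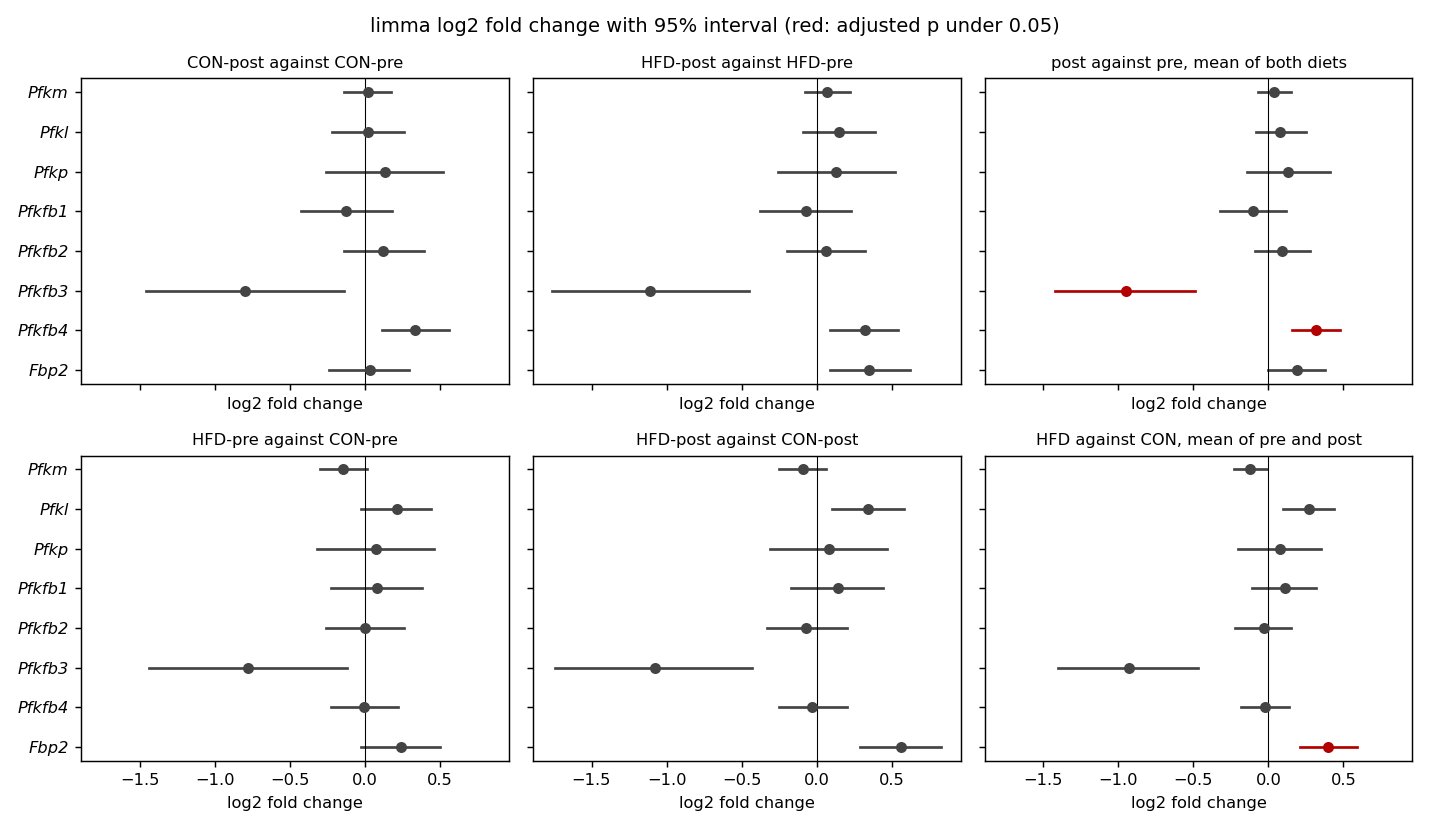
Log2 differences of the 8 genes with their 95% intervals (limma on log2(FPKM + 0.5)), in 6 panels for exercise within and over the diets (top) and diet within and over the states (bottom); red marks an adjusted p under 0.05 over all genes tested. The points in red are Pfkfb3 at -0.95 and Pfkfb4 at 0.32 for exercise over both diets and Fbp2 at 0.40 for diet over both states.

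Pfkfb1 (chromosome X, 150587445 to 150643878), the form known from liver and muscle, and Pfkfb2 (chromosome 1, 130689043 to 130729253), the form known from heart, gave no call. Pfkfb1 lay between 15.2 and 24.7 FPKM, with group means of 21.5, 22.6, 19.7 and 21.6 FPKM in the order CON-pre, HFD-pre, CON-post, HFD-post. Its log2 difference for exercise over both diets was -0.10 with a 95% interval from -0.32 to 0.12. Pfkfb2 lay between 2.52 and 3.97 FPKM, and its log2 difference for exercise was 0.09 with a 95% interval from -0.09 to 0.28. For diet over both states the values were 0.11 for Pfkfb1 and -0.03 for Pfkfb2, with intervals from -0.11 to 0.32 and from -0.22 to 0.15. The groups overlapped for both genes in every comparison.

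The mixture of bifunctional enzymes is given by the shares of the 4 genes, which are levels per transcript length. The summed FPKM of the 4 Pfkfb genes was 132 ± 36.4 in CON-pre, 89.9 ± 2.55 in HFD-pre, 95.6 ± 24.6 in CON-post and 65.2 ± 2.87 in HFD-post (SD, n = 4 each). Pfkfb3 made up 68.7% ± 11.1 of this sum in CON-pre, 56.3% ± 1.69 in HFD-pre, 54.9% ± 14.9 in CON-post and 35.8% ± 3.87 in HFD-post. For Pfkfb4 the share ran from 7.79 to 15.7% in CON-pre and from 25.3 to 27.6% in HFD-post. In HFD-post the share of Pfkfb3 ran from 31.5 to 40.1%, below all libraries of HFD-pre (54.1 to 57.8%) and overlapping CON-post only at its lowest library (39.0%). These shares were not tested, since they restate the values of the single genes.

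**Figure D3:**
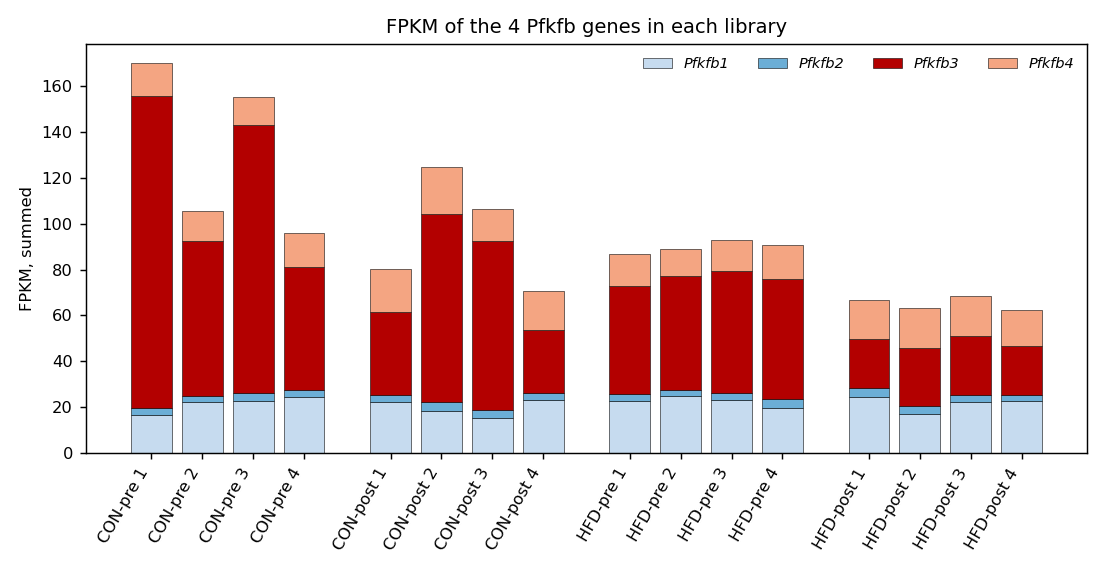
Stacked FPKM of Pfkfb1, Pfkfb2, Pfkfb3 and Pfkfb4 in each of the 16 libraries, grouped by diet and state, on a linear axis that starts at 0. The Pfkfb3 segment accounts for most of the height in CON-pre replicates 1 and 3 (80.1 and 75.4%) and for 31.5 to 40.1% in HFD-post.

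Over the 16 libraries, after the group means had been removed, the log2 values of the 28 pairs of members had Pearson r from -0.72 for Pfkfb1 and Pfkfb3 to 0.65 for Pfkm and Fbp2. The first pair is described because it was the lowest of the 28. Pfkfb3 had an r of 0.51 with Pfkfb2 and of -0.16 with Pfkfb4. CON-pre replicate 1, with the most Pfkfb3, had the least Pfkfb1 of its group (16.7 FPKM), and CON-pre replicate 4, with the least Pfkfb3, had the most Pfkfb1 (24.6 FPKM). These values describe 16 mice that share their groups, and FPKM of different genes in 1 library also share its scaling.

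Fbp2 (chromosome 13, 62836884 to 62858400) encodes the muscle fructose bisphosphatase, which opposes phosphofructokinase and is known for its part in rebuilding glycogen from lactate. Its FPKM was 22.3, 18.8, 22.7 and 22.3 in CON-pre and 25.0, 24.5, 27.4 and 24.6 in HFD-pre. It was 24.3, 24.1, 20.9 and 18.7 FPKM in CON-post and 23.9, 33.1, 39.5 and 35.9 in HFD-post. At rest all HFD libraries were above all CON libraries, and after the run 3 of the 4 HFD-post libraries were higher than any other library of the series, whereas replicate 1 was within the range of CON-post.

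Averaged over both states, Fbp2 rose on HFD by 0.40 on the log2 scale (SE 0.09, 95% interval 0.21 to 0.59, adjusted p = 0.0431). It was the only member called among 8 in this comparison, in which 0.959% of all genes tested were called. The log2 difference was 0.24 at rest (adjusted p = 0.664) and 0.56 after the run (adjusted p = 0.131). After the run its mean was 33.1 ± 6.67 FPKM in HFD-post against 22.0 ± 2.69 in CON-post (SD, n = 4 each). Exercise gave 0.03 on CON (95% interval -0.24 to 0.29) and 0.35 on HFD (0.09 to 0.62), neither of which passed the test (adjusted p of 0.964 and 0.276), and the interaction was 0.33 (SE 0.18, adjusted p = 1.00).

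The diet call of Fbp2 was close to the threshold and was lost in most of the alternatives. Leaving out a single library gave an adjusted p between 0.0528 and 0.0993 in 14 of 16 cases, the exceptions being CON-post replicate 1 (0.0408) and HFD-post replicate 1 (0.00189), while the difference stayed between 0.35 and 0.47. Without HFD-post replicate 1 the difference after the run was 0.71 (adjusted p = 0.00717) and that of HFD-post against HFD-pre 0.50 (adjusted p = 0.0310). That library also had the highest slow-fibre sum of the series (846 FPKM) and the lowest adipocyte sum (649 FPKM), and with the slow-fibre or the adipocyte score as a covariate the diet difference of Fbp2 was 0.36 or 0.37 (adjusted p of 0.0622 and 0.0660). The 10 adipocyte markers summed to between 719 and 954 FPKM in CON-pre, 780.3 and 920.1 in HFD-pre, 699.5 and 989.7 in CON-post and 649 and 1237 in HFD-post. These sums were led by Car3 and Fabp4, with means of 439.9 and 276 FPKM in CON-pre, against 17.4 FPKM for Adipoq. On HFD over both states 7 of these 10 markers were higher and 3 lower, with a median log2 difference of 0.16 against -0.02 for all genes, and 1 was called as higher (Lep) and 2 as lower (Cfd and Adrb3). The adipocyte score is the mean of the centred log2 values of these markers, Lep, Cfd and Adrb3 included. As a covariate, for Fbp2 as for the other members, it cannot separate adipocyte content from diet differences of the markers themselves. The part of adipocyte RNA in the Fbp2 values was not tested.

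The other fructose bisphosphatases were followed for comparison. Fbp1, the liver form, was not tested, with group means of at most 0.178 FPKM. The gene listed as 9630033F20Rik, an older symbol of Tigar, whose product removes the activator of phosphofructokinase, was at 35.1 ± 2.23 FPKM in CON-pre and 33.2 ± 3.78 in HFD-post (SD, n = 4 each) and was not called in any comparison. Its log2 difference for diet over both states was -0.08 (SE 0.07).

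Pfkm (chromosome 15, 98092589 to 98132447) varied little. Its FPKM was 1061, 905, 1036 and 1110.4 in CON-pre and 920.5, 882, 938 and 965 in HFD-pre. It was 1002, 1155, 1030.0 and 968 FPKM in CON-post and 902, 994, 988 and 1003 in HFD-post. In each of the 4 comparisons between single groups the libraries overlapped. The run left a log2 difference of 0.04 over both diets, with a 95% interval from -0.07 to 0.15, an interval that holds neither the value of Pfkfb3 nor that of Pfkfb4. The diet difference over both states was -0.12 (SE 0.05, adjusted p = 0.404).

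Pfkl (chromosome 10, 77986947 to 78009807), the form that prevails in liver, was near the bottom of the order. Its FPKM was 1.29, 1.64, 1.73 and 1.63 in CON-pre and 2.08, 2.06, 1.69 and 1.74 in HFD-pre. It was 1.54, 1.48, 1.55 and 1.82 FPKM in CON-post, and 2.21, 2.25, 1.68 and 2.52 FPKM in HFD-post. In each of the 4 comparisons between single groups the libraries overlapped, and 3 of the 4 HFD-post libraries were above all others. On HFD the log2 difference over both states was 0.27 (SE 0.08, adjusted p = 0.160), and it was 0.34 after the run (adjusted p = 0.490). The genes with the pattern most like that of Pfkl were Slc25a42, Tusc5 and Sncg, with r of 0.88, 0.85 and 0.83 over 16 libraries, of which Tusc5 and Sncg are known as genes of adipocytes. With the adipocyte score as a covariate the diet difference of Pfkl was 0.25 (adjusted p = 0.216). Pfkp (chromosome 13, 6579874 to 6649060), the form named after platelets, lay between 0.969 and 2.22 FPKM and gave no call, with log2 differences of 0.13 for exercise and 0.08 for diet. Log2 differences of such low genes are understated by the 0.5 FPKM that was added before the logarithm.

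None of the 8 was called for diet at rest, for exercise on CON, for exercise on HFD or for diet after the run, in which 0.346, 1.11, 0.542 and 0.151% of all genes tested were called. At an unadjusted p under 0.05 these comparisons held 1, 2, 3 and 3 of the 8, against 8.25, 11.1, 11.7 and 6.29% of all genes tested. The libraries of the 2 groups lay fully apart for 1, 0, 2 and 1 members, as they did for 5.62, 5.82, 6.81 and 3.16% of the genes tested. For the interaction 0% of all genes were called, 356 of 11256 genes had an unadjusted p under 0.05, and none of these was a member. These comparisons share groups, and their counts cannot be added.

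The genes whose levels ran most closely with those of Pfkfb3 over the 16 libraries were Ak1, Pnck, Fam53c, Tubb4b and Zfp280b, with Pearson r of 0.93, 0.92, 0.90, 0.88 and 0.87 on the log2 scale. Ak1, the adenylate kinase of muscle cytosol, was at 565 ± 31.4 FPKM in CON-pre, 494 ± 16.1 in HFD-pre, 481 ± 28.7 in CON-post and 421 ± 22.7 in HFD-post (SD, n = 4 each), the same order at its ends as Pfkfb3 but over a much narrower range. Within groups the r was 0.76 for Ak1, 0.79 for Pnck, 0.90 for Fam53c, 0.73 for Tubb4b and 0.85 for Zfp280b. Pfkm ran most closely with Aldoa, which encodes the aldolase of the step after it, with an r of 0.93, and then with Stk11ip (0.89) and Scrn2 (0.88). For Pfkfb4 the closest were Polr3e (0.88), Tle4 (0.86) and Btf3 (0.86), and for Fbp2 they were Cldn15 (0.87), Cdca4 (0.85) and Npr3 (0.84), of which Npr3 had an r of only 0.35 within groups. Pfkfb1 was closest to Slc41a1 (0.86), Klhl33 (0.83) and the clock gene Per1 (0.78), Pfkfb2 to Igfbp7 (0.89), Samm50 (0.88) and Slc35f5 (0.87), and Pfkp to Nudt9 (0.84), Psma1 (0.78) and Cnpy3 (0.77). These are the highest values among 11256 genes and carry no test.

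Of 20 other glycolytic enzymes listed, 14 were tested, and over both diets 1 rose and 1 fell after the run. Hk2, the hexokinase of insulin-responsive muscle, rose from 52.9 ± 3.55 to 111 ± 18.6 FPKM on CON and from 48.6 ± 1.91 to 109 ± 15.3 FPKM on HFD (SD, n = 4 each), a log2 difference of 1.10 over both diets (SE 0.08, adjusted p = 1.06e-06). Pgam2, the muscle phosphoglycerate mutase, fell by 0.32 on the log2 scale (adjusted p = 0.00682). Over both states 12 of the 14 were lower on HFD, with a median log2 difference of -0.16 against -0.02 for all genes, but Gapdh at -0.26 was the only one called (adjusted p = 0.0427), and its reads may be shared with near-identical copies. The most abundant of those called in no comparison, Aldoa, Eno3, Tpi1 and Ldha, had diet differences of -0.20, -0.23, -0.18 and -0.04, none of which passed the test. For Pgam2 the diet difference was -0.06, which did not pass either. The 11 fast-fibre markers had a median of -0.16 for the same comparison, 10 of them lower and none called, the same median as that of the glycolytic enzymes. Their summed FPKM lay between 74451 and 82942 in CON-pre and between 65693 and 73127 in HFD-pre, which did not overlap. In the exercised mice it lay between 67431 and 73968 on CON and between 56747 and 71744 on HFD, which overlapped, and the part of fibre make-up in these values was not tested.

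**Figure D4:**
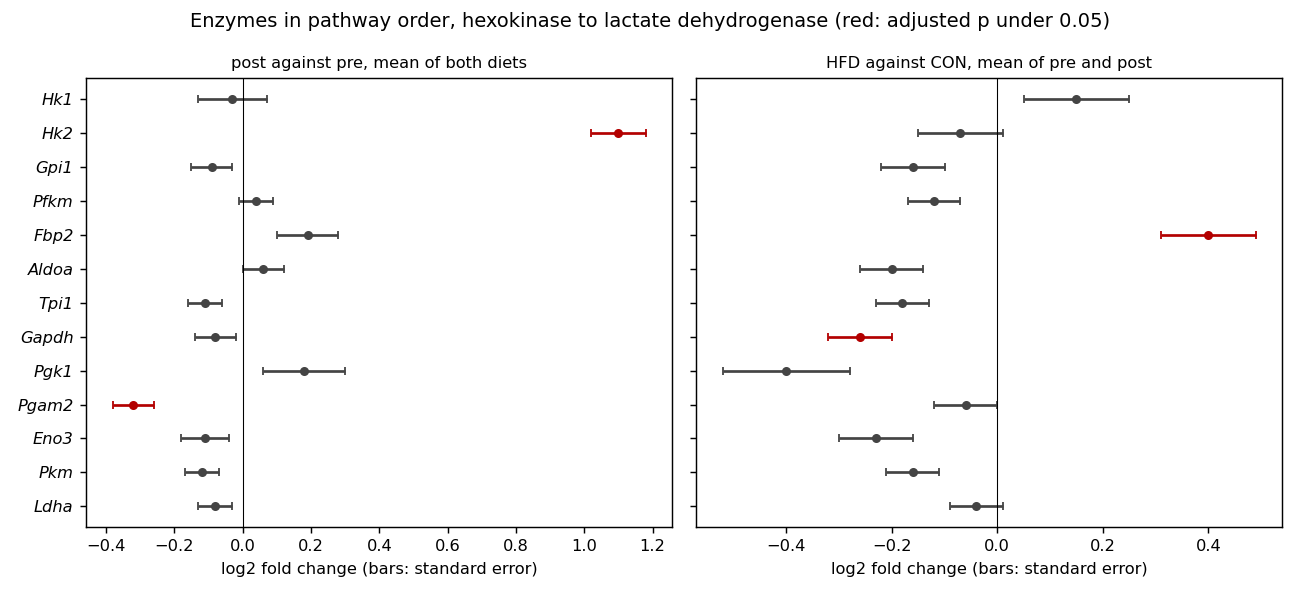
Log2 differences (points) with standard errors (bars) of tested enzymes in the order of glycolysis from hexokinase to lactate dehydrogenase, with Fbp2 beside Pfkm, for exercise over both diets (left) and diet over both states (right); red marks an adjusted p under 0.05. Hk2 stands at 1.10 for exercise while Pfkm is at 0.04, and for diet Fbp2 at 0.40 is the highest of the enzymes drawn.

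Among 15 tested targets of the hypoxia-inducible factors, 2 rose after the run over both diets, namely Bnip3, a mitophagy receptor (log2 difference 0.42, adjusted p = 0.0324), and Egln3, an oxygen-sensing prolyl hydroxylase (0.55, adjusted p = 0.0424), and their median was 0.12 against 0.01 for all genes. None of the 11 kinases and factors known to act on Pfkfb3 was called in any comparison, with 3 at an unadjusted p under 0.05 for exercise over both diets and 1 for diet over both states, against 18.5 and 10.4% of all genes tested. The most abundant of them, Mapkapk2, Akt2 and Prkaa2, a catalytic subunit of AMPK, were at 0.05, 0.14 and -0.07 for exercise, and Hif1a, picked out after its values had been seen, was at 0.32 (adjusted p = 0.0719). Of 4 glucose transporters none was called, and Slc2a4, the insulin-responsive transporter, had a diet difference of -0.18 (adjusted p = 0.174). Of 4 tested genes of gluconeogenesis and glucose release, Pcx, the pyruvate carboxylase, was down-regulated on HFD at rest (-0.60, adjusted p = 0.0138) and over both states (-0.52, adjusted p = 0.00102). Of 7 genes of the pentose phosphate pathway, Tkt, the transketolase, fell by 0.65 on the log2 scale on HFD (adjusted p = 0.0221), and of 11 genes of glycogen metabolism, Pgm2 fell by 0.23 (adjusted p = 0.0492), both over both states.

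The total FPKM ranged from 283575 to 329282 between libraries, and the depth relative to CON-pre replicate 1, taken from the values of low genes, was between 0.697 and 1.133. Read counts are not used here, so no interval for counting error can be given for a single value. Of the other cell type lists, endothelial, macrophage, blood and platelet, liver, fibroblast, satellite cell and Schwann cell markers had overlapping ranges of summed FPKM in all 4 groups, no gene of these lists other than Pecam1 was called, and their part in the values above was not tested.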

How the data were processed

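RNA from the quadriceps of 16 mice was sequenced by the authors from stranded poly(A) libraries. Per the labels and Methods, the authors checked reads with FastQC, aligned them with TopHat to mm9 and estimated expression with Cufflinks (versions not given in the sources used here). The deposited values are FPKM, scaled by the authors for transcript length and library size, so no count model was used. Of 24487 entries, 27 whose names had become dates were left out (0.0771% of FPKM), and entries of 260 repeated symbols, none a member, were summed. Every sample column was used (0 left out). The authors' tables of comparisons are not used here.

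The 11256 genes averaging 0.5 FPKM or more were tested with limma 3.58.1 in R 4.3.3 on log2(FPKM + 0.5), in 1 fit of the 4 groups with a mean-variance trend and two-sided tests. Calls needed an adjusted p (Benjamini-Hochberg, all genes tested) under 0.05. The code was tested on simulated data. Replicates are separate mice. The members and lists were chosen with earlier results of these data known. Besides the members, the text names genes of the pathway lists that were called, up to 4 others of highest mean FPKM in such a list, and the 5 (Pfkfb3) or 3 genes of highest Pearson r. Cell type and fibre markers that were called or most abundant are named outside this rule, chosen after their values had been seen. Python 3.11.15 with numpy 2.4.6, pandas 2.3.3 and matplotlib 3.10.9 made the tables and figures. Positions are from RefSeq GRCm38.p6, because loci printed in a supplementary table overlapped that build for 692 of 692 genes and mm9 for 114. The 15 alternatives and 16 leave-one-out fits are given at the end.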

Additional observations from a re-analysis of the deposited data

Results flagged for a closer look

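In 3 of the 32 groups examined (8 genes in 4 groups of 4 libraries), the lowest library stood apart from the others by a gap beyond Dixon's 95% critical value, where chance flags about 1 group in 20. Pfkfb4 was at 15.8 FPKM in HFD-post replicate 4, with a gap of 0.867 of the range. Pfkm was at 902 FPKM in HFD-post replicate 1, with a gap of 0.851. Fbp2 was at 18.8 FPKM in CON-pre replicate 2, with a gap of 0.883. Neither the CON-pre nor the CON-post libraries of Pfkfb3, which spread widely, were among these 3 groups.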

How the results depend on the processing

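Numbers of members called are given here. For exercise over both diets 2 were called, 1 without a filter on low values, 1 with the adipocyte score as a covariate and 1 to 3 when a single library was left out. For diet over both states 1 was called, 0 without a filter, 0 without a mean-variance trend, 0 with the adipocyte covariate, 2 with upper-quartile or median-of-ratios scaling, 2 with array weights, 2 at an adjusted p under 0.1 and 0 to 2 when a library was left out. With the slow-fibre covariate the 1 call was Pfkfb3 in place of Fbp2. Of the single comparisons, which gave 0, HFD-post against HFD-pre gave 1 when only these groups were fitted, HFD-post against CON-post gave 1 with array weights, and these and CON-post against CON-pre gave 0 to 1 when a library was left out. No fold change of a member that was called changed sign under any alternative. The adjusted p over 29 alternatives ran from 0.00759 to 0.0546 for Pfkfb3 after exercise (called in 26), from 0.00355 to 0.0552 for Pfkfb4 (called in 28) and from 0.00189 to 0.0993 for Fbp2 on HFD (called in 10), and for the diet difference of Pfkfb3, which was not called, from 0.0133 to 0.127 (called in 7). The causes were not tested. Scaling moved the median of all genes by at most 0.05 on the log2 scale.

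Whether the replicate numbers pair the mice or mark a batch was not tested. Same-numbered libraries of different groups had r between -0.220 and 0.213 for their deviations from the group means. Their median r was -0.0218, against 0.0159 for libraries of different numbers, and 6 of 16 libraries were closest to one with their own number. With a replicate block, 0 members were called for diet over both states (Fbp2 adjusted p = 0.0821), and no other call changed. With 4 mice a group and no read counts, small changes of Pfkl and Pfkp cannot be resolved.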
